A study of Mus musculus with 6 samples.

Results

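The hepatic mRNA levels of 9 enzymes of the folate and methionine cycles were described, namely *Mthfd1*, *Shmt1*, *Mtr*, *Mat1a*, *Gnmt*, *Bhmt*, *Ahcy*, *Cbs* and *Pemt*. They were picked by symbol, and all 9 were found among the 24421 genes of the authors' table. RNA-seq was performed on livers of 3 WT mice and 3 mice heterozygous for a null allele of *Pai-1* (*Pai-1*+/-), which encodes plasminogen activator inhibitor 1. All mice were on the C57BL/6 background, were 21 weeks old according to the labels, and ate standard chow without restriction. The heterozygotes came from a cross of *Pai-1*-/- with WT mice and keep 1 working copy, in all cells and not in hepatocytes alone. The labels give the WT mice as male, and the study describes both genotypes as male.

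The genotypes are not compared here. The table of counts has 6 columns named by animal numbers that match no sample label, so the genotype behind each column is unknown. What is described is the authors' mean normalized count of each gene over the libraries, in which WT and *Pai-1*+/- livers are averaged. It has no SD and no value per mouse, so no difference between genes below carries a test or an error between animals. The mean normalized counts of all genes sum to 30045982, which is the depth of an average library after normalization.

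The folate cycle carries single carbon units on tetrahydrofolate, and the methionine cycle turns them into methyl groups. Methionine is activated to S-adenosylmethionine, methyltransferases spend the methyl group, and the S-adenosylhomocysteine that remains is split to homocysteine. Homocysteine is then methylated back to methionine or passed down transsulfuration to cysteine. The liver is known as the main site of this cycle, and adult hepatocytes make S-adenosylmethionine with an isoenzyme of their own.

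In these livers 8 of the 9 enzymes were among the most abundant mRNAs and 1, *Mtr*, was scarce. To compare genes, the mean normalized count was divided by the length of the longest annotated transcript in kilobases, which gives the level per kilobase. Genes were ranked by it among the 12499 genes that had a mean normalized count above 10 and matched 1 annotated gene by symbol. All 9 enzymes passed that minimum. Of the 9, 8 lay in the top 10% of ranked genes, from *Mat1a* at 68194 per kilobase down to *Shmt1* at 1871, while the median ranked gene was at 129 and the 90th percentile at 1209. *Mtr* stood at 12.6 per kilobase, and the gap between it and *Shmt1*, the next in order, was 148-fold. Among the other 8 the whole range was 36.5-fold. That range was 66.4-fold with the coding length, and the gap was 51.1-fold without division by length. These are bulk livers, in which the number of cells of a type and the RNA per cell cannot be told apart.

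**Figure D1:**
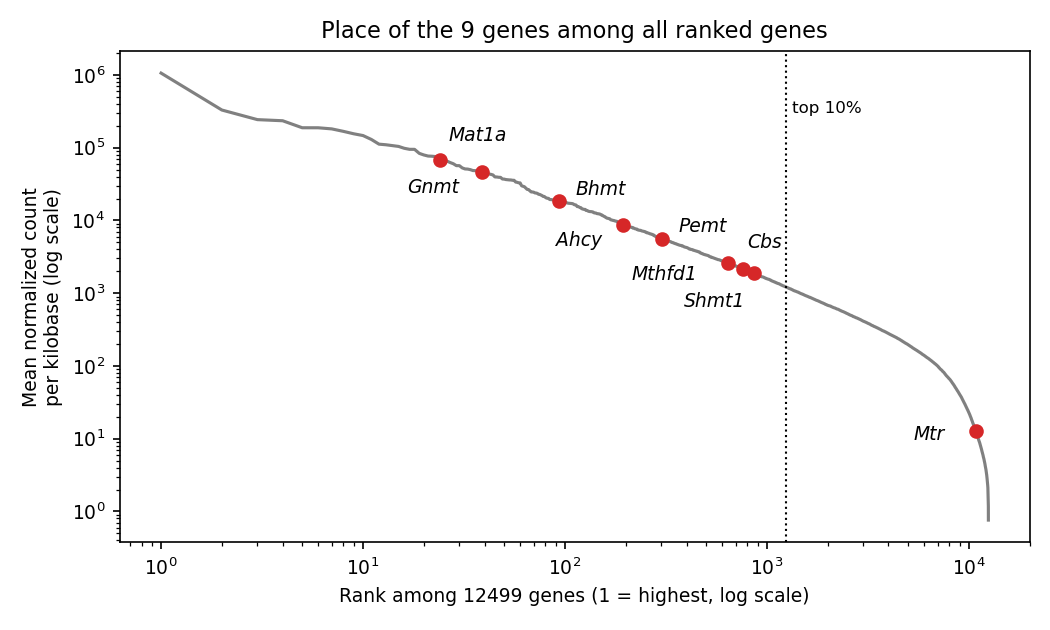
Level per kilobase of each of 12499 ranked genes (grey line, log axis) against its rank (log axis), with the 9 enzymes as red points and the top 10% to the left of the dotted line. Of the points, 8 lie left of that line, between ranks 24 and 868, and *Mtr* lies far to the right at rank 10857.

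*Bhmt* and *Mtr*, which both return homocysteine to methionine, are shown first, because they stood far apart in this order. *Bhmt* takes the methyl group from betaine, and *Mtr*, methionine synthase, takes it from methyl-tetrahydrofolate with the help of vitamin B12. The 100 bases before the RefSeq start site of each gene are given below on the strand of the gene (RefSeq, GRCm38.p6, the assembly also named mm10), with CG dinucleotides in capitals. *Bhmt* is read from chr13:93637759-93637858 and *Mtr* from chr13:12258114-12258213, both on the minus strand. The *Bhmt* stretch lies within the gene as the GENCODE annotation bounds it, chr13:93616675-93637961, so the start of *Bhmt* differs between the annotations.
Bhmt: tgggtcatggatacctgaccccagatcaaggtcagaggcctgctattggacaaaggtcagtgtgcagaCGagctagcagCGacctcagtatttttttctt
Mtr: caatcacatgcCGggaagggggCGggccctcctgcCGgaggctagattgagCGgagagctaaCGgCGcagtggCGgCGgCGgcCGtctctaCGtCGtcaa
*Bhmt* has 2 CG dinucleotides in this stretch and *Mtr* has 12, against a median of 3 over the 32851 promoters of the RefSeq table. Those promoters include genes that were not ranked, and ranked genes had more CG dinucleotides. In the 250 bases before the start, the median was 6 over all promoters and 15 over ranked genes with a promoter. Of those ranked genes, 12.7% had fewer than *Bhmt* in the 250 bases, and 29.9% had more than *Mtr*.

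The mean normalized count was 73855 for *Bhmt* and 105 for *Mtr*. Per kilobase the levels were 18636 and 12.6, so that *Bhmt* stood 1478-fold above *Mtr*, and 1045-fold to 2352-fold above it with other lengths. *Bhmt* ranked 93rd, at percentile 99.3. *Mtr* ranked 10857th, at percentile 13.1, and this percentile depended on which scarce genes were ranked with it. It was 53.0 when genes below the minimum were included and 0.284 when a mean normalized count above 100 was required. *Mtrr*, the reductase that reactivates methionine synthase, stood at 67.0 per kilobase, and the ratio of *Mtr* to it was 0.188, and 0.404 without division by length.

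*Bhmt* lies on chr13:93616675-93637961. Its next protein-coding neighbour, 17.8 kb away on the same strand, is its paralog *Bhmt2*, at chr13:93655720-93674302. *Bhmt2* methylates homocysteine from S-methylmethionine. It stood at 3680 per kilobase, so that *Bhmt* was 5.06-fold higher, and 3.49-fold to 8.06-fold higher with other lengths. The start of *Bhmt2* is in turn separated by 130 bases from that of *Dmgdh* on the opposite strand, the dehydrogenase of dimethylglycine, which is the product *Bhmt* leaves from betaine. *Dmgdh* stood at 6902 per kilobase, at percentile 98.0, so all 3 of these protein-coding genes were in the top 10%. *Mtr* lies on the same chromosome at chr13:12182712-12258113, 81.4 Mb from *Bhmt*, and spans 33 exons in its longest transcript.

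*Mat1a* encodes the liver isoenzyme that joins methionine to ATP as S-adenosylmethionine. It had the highest level of the 9, with a mean normalized count of 236497, or 0.787% of the sum over all genes. The other 8 enzymes together made up 0.589%. It ranked 24th of all ranked genes at 68194 per kilobase and is placed on chr14:41105035-41124412 on the plus strand, with 10 exons. *Mat2a*, the catalytic subunit found outside the liver and in growing hepatocytes, stood at 935 per kilobase and percentile 87.7. *Mat1a* was thus 73.0-fold above *Mat2a*, a ratio that stayed between 73.0 and 96.6 with every length tried. *Mat2b*, the regulatory partner of *Mat2a*, stood at 534 per kilobase.

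A pair of members, *Gnmt* and *Pemt*, spend S-adenosylmethionine, and they differed in level by 8.31-fold, and by 6.91-fold to 14.96-fold with other lengths. *Gnmt* methylates glycine to sarcosine and is known to dispose of excess methyl groups in the liver. *Pemt* makes phosphatidylcholine from phosphatidylethanolamine in the hepatocyte. *Gnmt* had a mean normalized count of 48189 and 46559 per kilobase, which ranked it 39th. *Pemt* had a mean normalized count of 5619.7 and 5603 per kilobase, which ranked it 301st at percentile 97.6. The order of *Gnmt* and *Bhmt* was not fixed, since their ratio was 2.50 with the longest transcript and 0.906 with the coding length. The longest transcript of *Bhmt* in the annotation keeps an intron, and with its longest protein-coding transcript *Bhmt* stood at 29661 per kilobase.

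The stretches before the start sites of *Gnmt* and of *Pemt* are shown because they hold the letters TATAA, searched on the strand of the gene in the last 100 bases before the start. *Gnmt* is read from chr17:46729166-46729265 and *Pemt* from chr11:60040189-60040288, both on the minus strand, with CG and TATAA in capitals. The *Pemt* stretch lies within the gene as GENCODE bounds it, chr11:59970614-60046489.
Gnmt: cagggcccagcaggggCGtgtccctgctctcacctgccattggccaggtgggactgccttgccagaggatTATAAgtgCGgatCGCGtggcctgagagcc
Pemt: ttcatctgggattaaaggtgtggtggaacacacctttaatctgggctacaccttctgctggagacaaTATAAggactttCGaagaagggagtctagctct
TATAA begins 30 bases before the start of *Gnmt* and 33 bases before that of *Pemt*. *Pemt* has 2 RefSeq start sites in the table, and the other, downstream at position 60037005, has no TATAA in that window. A share of 7.48% of all these promoters hold TATAA there. The next shares are of genes, each counted if any of its start sites holds TATAA there. Among genes with a promoter in the top 10% of ranked genes the share was 9.66%, and over all ranked genes with a promoter it was 4.99%. The letters are a match and were not shown to be bound.

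*Gnmt* is a compact gene of 3.51 kb on chr17:46725664-46729168, and *Pemt* spreads over 75.9 kb on chr11:59970614-60046489. Other methyltransferases varied in level. *Inmt*, which methylates indoles, stood at 7093 per kilobase, *Nnmt*, which methylates nicotinamide, at 4502, and *Gamt*, which makes creatine, at 2966. *Tpmt*, *Hnmt*, *Coq3* and *Icmt* stood lower, at 585, 546, 267 and 260. *Gnmt* was 15.7-fold above *Gamt* and 10.3-fold above *Nnmt*.

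*Ahcy* splits S-adenosylhomocysteine into adenosine and homocysteine. Its mean normalized count was 22152 and its level 8711 per kilobase, which ranked it 194th at percentile 98.5. The gene lies on chr2:155059310-155074497 on the minus strand. Its value is uncertain, because 65.9% of the distinct windows of 75 bases in its transcripts, the length of the reads, occur unchanged in other annotated transcripts. The gene with most of them, *Gm4737*, holds 62.5% of the windows and had a mean normalized count of 396. How the authors' counting treated reads with more than 1 place is not given in the sources used here. *Ahcyl1* and *Ahcyl2*, relatives of *Ahcy* that are not known to split S-adenosylhomocysteine, stood at 1252 and 121 per kilobase. *Adk*, the kinase that removes the adenosine, stood at 4844.

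*Cbs* joins homocysteine to serine as cystathionine, the first step of transsulfuration. It had a mean normalized count of 13268 and 2131 per kilobase, at rank 764 and percentile 93.9. It lies on chr17:31608894-31637238, 15.1 Mb from *Gnmt*. *Cth*, which cuts cystathionine to cysteine, stood higher at 13346 per kilobase, 6.26-fold above *Cbs*. That ratio was 1.83 without division by length and 2.57 when the coding length was used, since the longest transcript of *Cbs* has 6226 bases and its coding part 1683.

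In the folate cycle, *Mthfd1* carries the cytosolic interconversions of tetrahydrofolate and *Shmt1* takes a carbon unit from serine. *Mthfd1* had a mean normalized count of 8409 and 2595 per kilobase, at percentile 94.9, and spans 28 exons on chr12:76255298-76319803. *Shmt1* had a mean normalized count of 5347 and 1871 per kilobase, at percentile 93.1, and lies on chr11:60788104-60811718, 0.742 Mb from *Pemt*. With the coding length, *Mthfd1* was at percentile 89.5, just outside the top 10%. The mitochondrial counterparts differed from each other. *Shmt2* stood at 2946 per kilobase, and *Shmt1* was at 0.635 of it. The mitochondrial relatives of *Mthfd1* were scarce, with *Mthfd1l* at 21.9 and *Mthfd2* at 13.6 per kilobase, so that *Mthfd1* was 119-fold and 191-fold above them. The ratio to *Mthfd2* was 111 to 233 with other lengths and 297 without division by length.

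**Figure D2:**
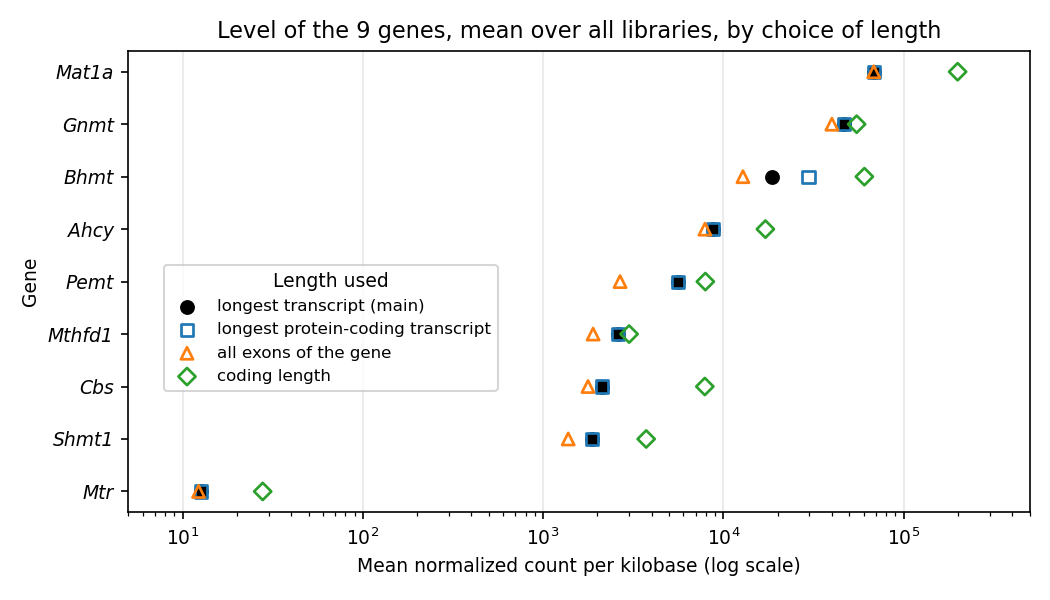
Level per kilobase of the 9 enzymes (log axis), from the authors' mean over all libraries, with 4 choices of the length that divides the mean normalized count. *Mtr* lies far below the others with each length, the order of *Gnmt* and *Bhmt* changes with the coding length, and the 5 enzymes from *Ahcy* to *Shmt1* lie in between.

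Reads of other members could also be mixed with those of overlapping or similar genes. *Bhmt* shares 21.6% of its windows of 75 bases with other annotated transcripts, most of them with *Gm5096*, and 187 of its exonic bases with *Gm15622* on the opposite strand. *Shmt1* shares 184 exonic bases with *Smcr8* on the opposite strand, or 2.70% of its windows. *Cbs* shares 0.131% of its windows. No window of *Mat1a*, *Gnmt*, *Pemt*, *Mthfd1* or *Mtr* occurred in another gene of the annotation.

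The wider pathway was described by 6 lists of 74 genes. In all, 71 of them were above a mean normalized count of 10 and could be ranked, 54 were above the median ranked gene and 28, or 39.4%, were in the top 10%, which by construction holds 10% of all ranked genes. Of the other genes, 23 stood above *Shmt1*, 1 above *Bhmt* and 6 below *Mtr*.

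Among 20 genes of folate metabolism and transport, 4 were in the top 10% and the median was 114 per kilobase. The highest were *Aldh1l1*, which oxidizes formyl-tetrahydrofolate, at 10107, *Ftcd*, which takes a carbon unit from histidine breakdown, at 3972, and *Shmt2*. The lowest were the mitochondrial enzymes *Mthfd2l*, at 5.59, and *Aldh1l2*, at 2.46, and the folate receptor *Folr1*, at 0.650. *Tyms*, which makes thymidylate, stood at 40.4.

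Of 16 genes of the methionine cycle and of methyl transfer, 8 were in the top 10%, with a median of 1094 per kilobase. *Inmt* and *Adk* were among the highest, and *Mtrr*, *Ahcyl2* and *Icmt*, at 260, were lowest. Of 10 genes of choline and betaine, 5 were in the top 10% and the median was 1199. They were led by *Sardh*, which oxidizes the sarcosine that *Gnmt* makes, at 7253, *Dmgdh*, and *Pcyt2*, of phosphatidylethanolamine synthesis, at 6326. The lowest were the kinases *Chka* and *Chkb*, at 279 and 24.7, and the choline transporter *Slc44a1*, at 143.

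Of 9 genes of glycine cleavage and serine, 4 were in the top 10% and the median was 979 per kilobase. *Sds*, which breaks serine down, stood at 4706, and *Dld* and *Gcsh* of the glycine cleavage system at 1965 and 1942. The enzymes that make serine were scarce, with *Phgdh* at 2.17, *Psat1* at 6.66 and *Psph* at 44.0.

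All 10 genes of transsulfuration and cysteine use were above the median ranked gene, 6 of them in the top 10%, with a median of 1994 per kilobase. *Cdo1*, which commits cysteine to taurine and sulfate, was the 1 other pathway gene above *Bhmt*, at 43547 per kilobase. *Cth* and *Csad*, at 3410, followed, and *Gclm*, *Ethe1* and *Gss* were lowest, at 901, 719 and 578. Of 9 genes of polyamines and methionine salvage, 1 was in the top 10% and the median was 254. *Adi1* stood at 3797, *Odc1* at 640 and *Srm* at 428, while *Enoph1* stood at 68.1 and *Sms* at 16.0. *Amd1* is listed at 0, which was not examined further and is not read as absence.

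**Figure D3:**
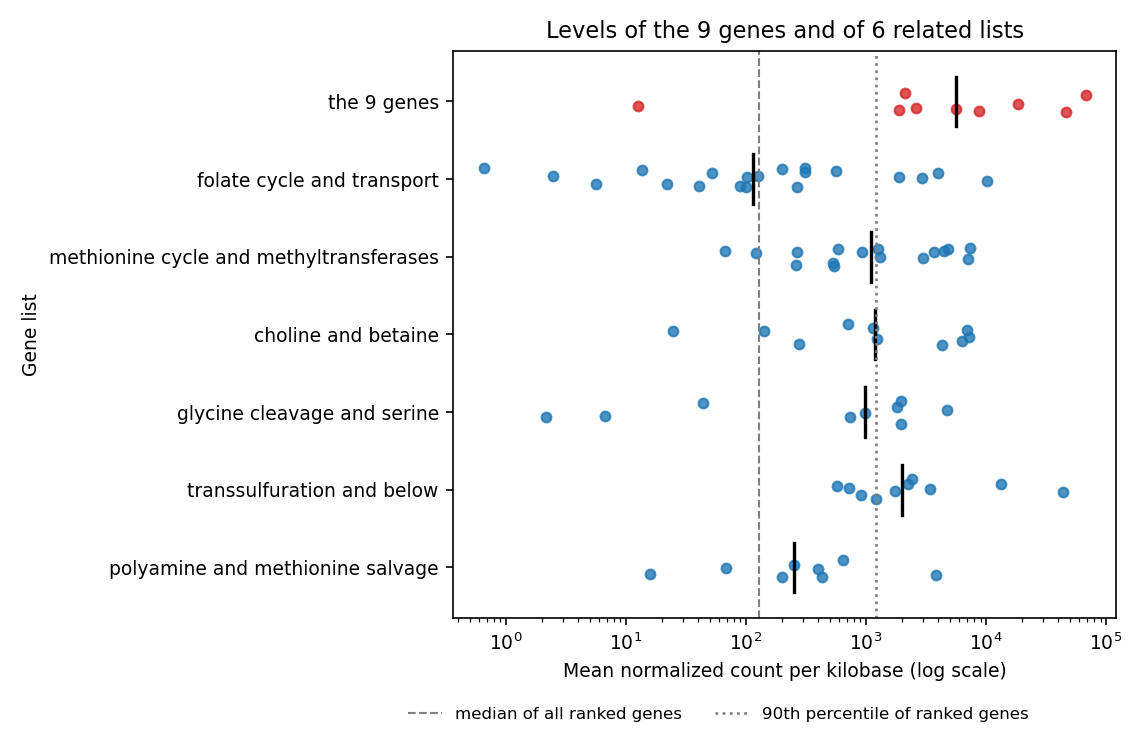
Level per kilobase (log axis) of the 9 enzymes (red) and of the genes of 6 related lists (blue), with the median of each list as a black bar and the median and 90th percentile of all ranked genes as dashed and dotted lines. The 9 enzymes except *Mtr* lie right of the dotted line, while the folate list spreads from 0.650 to 10107 and *Amd1*, listed at 0, is not drawn.

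A promoter was given by RefSeq for 8 of the 9 enzymes. The RefSeq start lies within the GENCODE bounds of *Gnmt*, *Bhmt*, *Pemt*, *Cbs* and *Shmt1*, and before those of *Mthfd1*. The CG numbers therefore hold for the RefSeq starts only. In the 250 bases before the start, CG dinucleotides numbered 6 in *Gnmt*, 5 in *Bhmt*, 9 in *Ahcy* and 1 and 2 at the start sites of *Pemt*. They numbered 15 in *Mthfd1*, 21 in *Cbs*, 13 in *Shmt1* and 20 in *Mtr*. The 4 enzymes with the higher levels therefore had at most 9, and the 4 with the lower levels at least 13. The median over the 9868 ranked genes with a promoter was 15, and 12.7% of them had fewer CG dinucleotides than *Bhmt* and 29.9% had more than *Mtr*. Among genes with a promoter in the top 10% of ranked genes, the median was 13. It was 12 in the lowest 10%, and also 12 in the next class of 10 percentiles, which holds *Mtr*. This is a description of 8 genes, and without division by length *Pemt* fell below *Cbs* and *Mthfd1* in the order. The promoter of *Mat1a* was not analysed here.

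**Figure D4:**
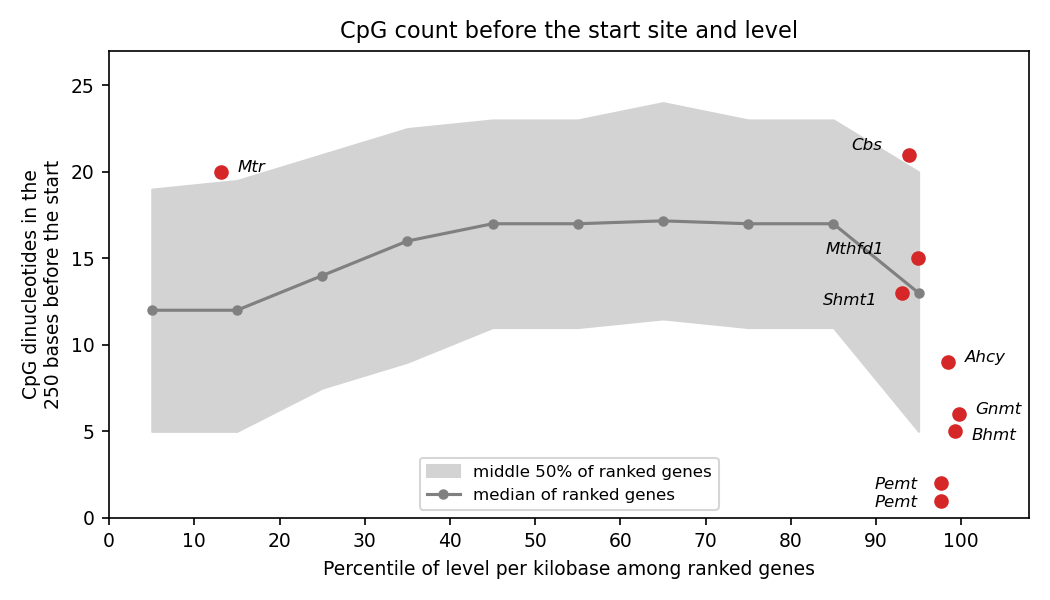
Number of CG dinucleotides in the 250 bases before the start of the 8 enzymes with a promoter (red, both start sites of *Pemt*) against the percentile of their level per kilobase. The median and the middle 50% are of the ranked genes with a promoter, in classes of 10 percentiles. There a gene with several start sites enters by its mean number. *Gnmt*, *Bhmt*, *Ahcy* and *Pemt* lie at 1 to 9 and *Mthfd1*, *Cbs*, *Shmt1* and *Mtr* at 13 to 21.

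The tissue label was checked against markers. All 6 hepatocyte markers were in the top 10%, led by *Alb* at percentile 100, with a summed mean normalized count of 2713520. The sums were 5926 for 6 Kupffer cell markers, 4419 for 6 of endothelial cells, 6089 for 5 of stellate cells, 1607 for 5 of bile duct cells, 196 for 4 of neutrophils, 66.7 for 4 of lymphocytes and 328 for 4 of pancreas. None of the markers of skeletal muscle, kidney or fat exceeded 10. Of 3 red cell markers, *Hba-a1* and *Hbb-bs* are listed at 0 and *Alas2* stood at 2136. Why *Hba-a1* and *Hbb-bs* are listed at 0 was not tested, so these values are not read as absence. The part of other cell types in the levels of the 9 enzymes was not tested.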

How the data were processed

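Total RNA of liver, frozen per the labels and kept in RNA preservative per the methods, was made into mRNA libraries and sequenced as single-end reads of 75 bases. The authors aligned the reads to mm10 with STAR and ran DESeq2 through the RNA Express BaseSpace application, and the submitters' processing notes also name HOMER. Versions, annotation, filters and strand setting are not given in the sources used here. The signal used is the deposited mean normalized count, in which the authors scaled each library's counts by its size factor and averaged the libraries. The other columns of that deposited table hold the authors' own comparison of the genotypes (fold changes, errors, statistics and p-values) and were not used. The deposited table of counts was not used either, because its 6 columns match no sample label, so the planned tests between genotypes were not run.

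Genes were matched by symbol to GENCODE M21 (GRCm38), which placed 23334 of 24421 genes and 96.4% of the 12971 with a mean above 10. Lengths, exon overlaps, shared windows of 75 bases and promoter features were computed with Python 3.11.15, NumPy 2.4.6, pandas 2.3.3 and Matplotlib 3.10.9 and checked on simulated data. Alternatives were other lengths and other minimum counts. The members and lists were chosen with earlier results of these data known. The genes named are the 9 enzymes, their paralogs and partners, and the 3 highest and 3 lowest genes of each list, and other list genes and the motifs were chosen after their values were seen. Sequences are from RefSeq. A few list genes are left out of the text.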

Additional observations from a re-analysis of the deposited data

How the results depend on the processing

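The number of the 9 enzymes in the top 10% of ranked genes was 8, and 7 with the coding length. *Bhmt* stood above *Mtr* under each alternative, by 1045-fold with the total exon length, 2174-fold with the coding length, 706-fold without division by length and, in a setting chosen after seeing the data, 2352-fold with the longest protein-coding transcript. *Mat1a* stood above *Mat2a* by 96.6-fold with the total exon length, 74.5-fold with the coding length and 74.7-fold without division by length. These shifts come from the lengths themselves. Of 54 percentiles of single enzymes under 6 alternatives, 53 stayed on their side of the 90th percentile, the exception being *Mthfd1* with the coding length. *Mat1a*, *Gnmt* and *Bhmt* were the highest 3 and *Mtr* the lowest in all 7 orders. Settings that change only the minimum count leave each level as it is, so their orders could not differ from the main one. No paired analysis was possible because no column of counts could be assigned to a sample. The planned fits with edgeR and DESeq2, the filter on counts and the fits leaving out each replicate were not run. No column of counts could be assigned to a sample. Any difference between genotypes was not analysed. Depth per library and the spread between mice need no genotype, but they were not analysed here either. How far each level holds in 1 mouse is therefore not shown.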
